A study of Mus musculus with 4 samples.

Results

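Complement and coagulation genes were followed in the livers of mice that lack LPIAT1 in hepatocytes and of their controls, on chow and on high fat diet (HFD). The 47 genes were listed by name for their place in both cascades, by a rule that uses no measured value, and were found through the transcript accession of their probes among the 23462 genes that the arrays could be matched to. All 47 had a probe. Earlier results of these data were known when the members were chosen. By their main source, from general knowledge, 39 are hepatocyte-made plasma factors, 5 are the macrophage-made C1q chains and receptors (C1qa, C1qb, C1qc, C3ar1 and C5ar1), and 3 come largely from other cells (Cfp, F3 and F8). Some factors of the first group, among them C3, C4b, Cfb, C1ra and Serping1, are also made outside hepatocytes.

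Complement and coagulation are plasma cascades in which one protease activates the next. C1q and the mannose-binding lectins start complement on a tagged surface, C3 and C5 are cleaved, the fragments C3a and C5a call in leukocytes through their receptors, and the terminal proteins build a pore. In coagulation, tissue factor and the contact enzymes lead to thrombin, which turns fibrinogen into fibrin, and plasmin dissolves it. The liver is the main source of most of these proteins, while C1q comes from tissue macrophages such as Kupffer cells.

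Total liver RNA was hybridised to 4 one-colour Agilent arrays, 1 for each genotype and diet, so the differences have no replicate check and none of them was tested. F/F mice carry floxed Lpiat1 (Mboat7) alleles without Cre, and LKO mice carry the same alleles with Alb-Cre, which acts in hepatocytes and leaves the gene intact in macrophages and other liver cells. All were males on a C57BL/6 background, put on chow or HFD when 6 weeks old, kept on it for 18 weeks and sampled at 24 weeks. Whether an array holds 1 mouse or a pool is not given in the sources used here. Values below are relative signals, the processed signal of a probe divided by the 75th percentile of its array, which can be compared between arrays for 1 probe but not between probes. Differences are in log2. Between 2 spots of the same probe on an array, both well above background, the difference had a SD of 0.089 over 296 probes. This technical spread holds neither the variation between mice nor that between arrays. For spots not well above background the SD was 0.59 over 10 probes. Between 2 probes of the same gene, the differences of LKO and F/F on HFD had a SD of 0.32 over 5127 genes. Of the spots, 53.0% to 57.0% were well above background. The single Mboat7 probe read 4.97 for F/F and 4.04 for LKO on chow, then 4.49 for F/F and 3.72 for LKO on HFD, lower by 0.30 and 0.27 in LKO, but its position against the floxed exons is unknown here, so it checks the labels only in part.

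Promoter sequences from RefSeq (mouse build GRCm38.p6) were found for 37 of the 47 members. The 250 bases before the annotated start are shown, 5′ to 3′ on the strand of the gene, for the genes on which the diet results turn, namely the 3 fibrinogen chains, which lie close together on chromosome 3, and C8b, which differed most between diets among the factors by their brightest probes, and for C1qb as a macrophage-made gene. Capitals mark matches, on either strand, to the C/EBP motif TTGCNNAA or the STAT motif TTCNNNGAA.
Fga, chr3:83025903-83026152, + strand: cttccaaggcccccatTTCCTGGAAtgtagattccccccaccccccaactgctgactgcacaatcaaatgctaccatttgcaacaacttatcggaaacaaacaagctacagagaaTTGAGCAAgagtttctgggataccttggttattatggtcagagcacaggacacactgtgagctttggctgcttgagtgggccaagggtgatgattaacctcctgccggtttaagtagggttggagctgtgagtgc
Fgb, chr3:83049864-83050113, - strand: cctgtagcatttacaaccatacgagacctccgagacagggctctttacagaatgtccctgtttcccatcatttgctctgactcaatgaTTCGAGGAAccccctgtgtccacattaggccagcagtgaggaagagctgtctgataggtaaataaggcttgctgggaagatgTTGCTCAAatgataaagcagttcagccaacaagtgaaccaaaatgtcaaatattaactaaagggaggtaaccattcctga
Fgg, chr3:83007474-83007723, + strand: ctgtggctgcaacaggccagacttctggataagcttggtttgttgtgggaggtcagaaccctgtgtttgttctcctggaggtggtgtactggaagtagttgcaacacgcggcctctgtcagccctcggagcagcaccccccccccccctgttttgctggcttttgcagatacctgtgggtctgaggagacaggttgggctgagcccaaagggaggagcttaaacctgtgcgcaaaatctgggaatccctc
C8b, chr4:104766067-104766316, + strand: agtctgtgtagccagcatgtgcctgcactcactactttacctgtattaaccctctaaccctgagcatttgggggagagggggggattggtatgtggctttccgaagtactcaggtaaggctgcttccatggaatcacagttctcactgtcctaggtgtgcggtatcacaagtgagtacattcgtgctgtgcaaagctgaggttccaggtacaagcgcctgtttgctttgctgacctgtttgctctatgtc
C1qb, chr4:136886201-136886450, - strand: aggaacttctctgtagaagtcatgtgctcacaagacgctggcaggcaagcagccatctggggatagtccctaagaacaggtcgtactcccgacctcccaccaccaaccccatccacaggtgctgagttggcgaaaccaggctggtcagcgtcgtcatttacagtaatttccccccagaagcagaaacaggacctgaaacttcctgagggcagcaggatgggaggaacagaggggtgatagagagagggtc

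Fga held 1 match to each of these motifs, beginning 234 (STAT) and 135 (C/EBP) bases before the start. Fgb held both in the same order, at 162 and 80 bases. Fgg, C8b and C1qb held none. C/EBP factors and STAT3 are known regulators of liver plasma protein genes. Over the 30 hepatocyte-made members with a promoter, the C/EBP motif was found in 7 (23.3%) and the STAT motif in 6, against 10.8% and 8.13% of all 27025 genes with a promoter of that length. The HNF4 motif CAAAGTCCA was in 0 of the 30 and in 0.451% of all. The 4 macrophage-made members with a promoter (C1qb, C1qc, C3ar1 and C5ar1) held none of the 3 motifs. These are matches of letters, not sites shown to be bound.

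The macrophage-made members stood highest on the LKO HFD array, and the hepatocyte-made members stood lower on both HFD arrays. The 3 C1q chains form the recognition part of the first complement component. C1qa had a relative signal of 5.71 for F/F and 5.65 for LKO on chow, then 7.51 for F/F and 12.8 for LKO on HFD. C1qb read 4.60, 4.57, 6.67 and 11.7 in the same order. C1qc read 9.45, 9.48, 13.8 and 22.6. For each chain the chow arrays were nearly equal, F/F HFD lay above both and LKO HFD far above all. On chow, LKO differed from F/F by -0.01 for C1qa and C1qb and by 0.00 for C1qc, less than the technical spread. On HFD, the same difference was 0.77 for C1qa, 0.81 for C1qb and 0.71 for C1qc. The difference between diets was 0.39 to 0.55 in F/F and 1.18 to 1.36 in LKO, so that each chain passed 2-fold in the LKO pair and none did in the F/F pair.

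**Figure D1:**
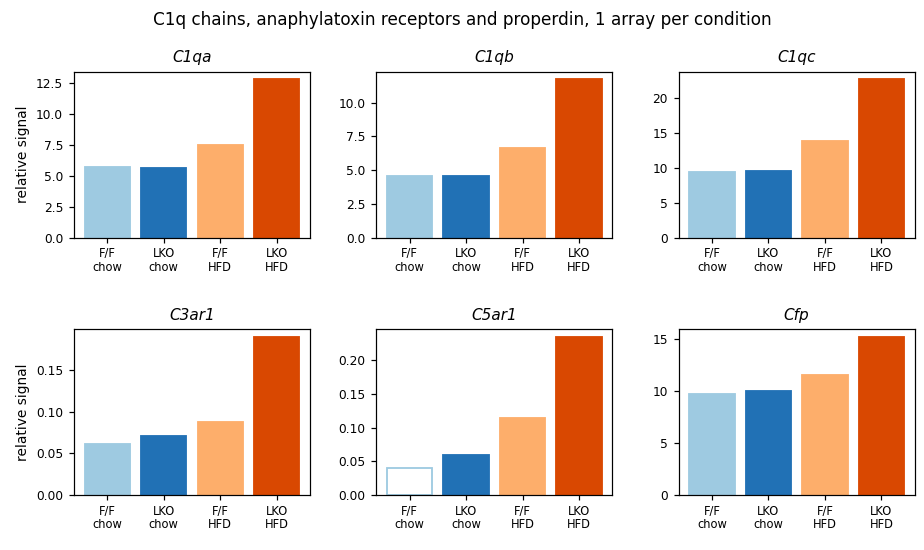
Relative signal (vertical axis, multiples of the 75th percentile of the array) of the 3 C1q chains, both anaphylatoxin receptors and properdin, with 1 bar per array and a separate scale per gene; the open bar was not well above background. All 6 genes are highest on LKO HFD, where C1qc reaches 22.6 against 9.45 on F/F chow.

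The anaphylatoxin receptors sit mainly on myeloid cells. C3ar1, the C3a receptor, read 0.0615 for F/F and 0.0704 for LKO on chow, then 0.0871 for F/F and 0.190 for LKO on HFD. C5ar1, the C5a receptor, read 0.0395 (not well above background), 0.0597, 0.114 and 0.234. Both rank the arrays alike, with LKO HFD highest, but these are dim probes near the lower limit of the arrays. On HFD they were 1.12 (C3ar1) and 1.04 (C5ar1) higher in LKO, and with normexp background correction these differences were 0.41 and 0.38. Between diets, C3ar1 differed by 0.50 in F/F and 1.43 in LKO, and after normexp by 0.06 and 0.34. C5ar1 differed 3.93-fold between diets in LKO. It differed 2.88-fold between diets in F/F, and on chow the LKO array exceeded the F/F array 1.51-fold. The last 2 values rest on the F/F chow reading, which was not well above background. After normexp the diet differences of C5ar1 were 0.19 and 0.40 in log2, and the genotype difference on chow was 0.17.

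Of the members from other cells, only Cfp stood highest on LKO HFD, as the C1q chains did. Cfp encodes properdin, which myeloid cells make and which stabilises the alternative C3 convertase. Its signal was 9.74 for F/F and 10.03 for LKO on chow, then 11.5 for F/F and 15.2 for LKO on HFD, 0.40 higher in LKO on HFD, and a second, dimmer probe gave 0.33. F3, tissue factor, the trigger of coagulation, read 0.406, 0.564, 0.492 and 0.488. F8, the cofactor of factor IX that endothelial cells make, read 0.405, 0.363, 0.577 and 0.492. F8 was higher on both HFD arrays (0.51 in F/F and 0.44 in LKO), whereas F3 was highest on LKO chow.

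Cell type markers were read beside these results, and their lists did not all shift alike. Of 15 macrophage markers, 12 were higher in LKO on HFD (median 0.68), among them Cd68 with 0.84 and Adgre1 with 0.36. The 3 lower ones were Timd4 (-0.95), Marco (-1.64) and Cd163 (-0.65). The mean log2 relative signal of all 15 was 1.34 for F/F and 1.55 for LKO on chow, then 2.18 for F/F and 2.67 for LKO on HFD. These means include Gpnmb, which was well above background on the HFD arrays only. Its chow readings (0.0079 for F/F and 0.0361 for LKO) lower both chow means, that of F/F more. All 6 stellate cell markers were higher in LKO on HFD (median 0.34), 4 of 7 endothelial markers were (0.11), and of 5 neutrophil markers with a value 2 were higher and 3 lower (-0.19), Ngp being above background on no array. Of 4 platelet markers with a value 3 were lower in LKO on HFD (median -0.56), and of 4 adipocyte markers with a value 2 were higher and 2 lower (0.16), Cidea with -1.60. The 9 hepatocyte markers on the arrays, including albumin and transthyretin, stood well above background throughout, and their mean log2 relative signal was 8.10 on both chow arrays, and on HFD 7.68 for F/F and 7.46 for LKO. In whole liver, more cells of a type and more RNA per cell cannot be told apart, and the part of these shifts in the members' differences was not tested.

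**Figure D2:**
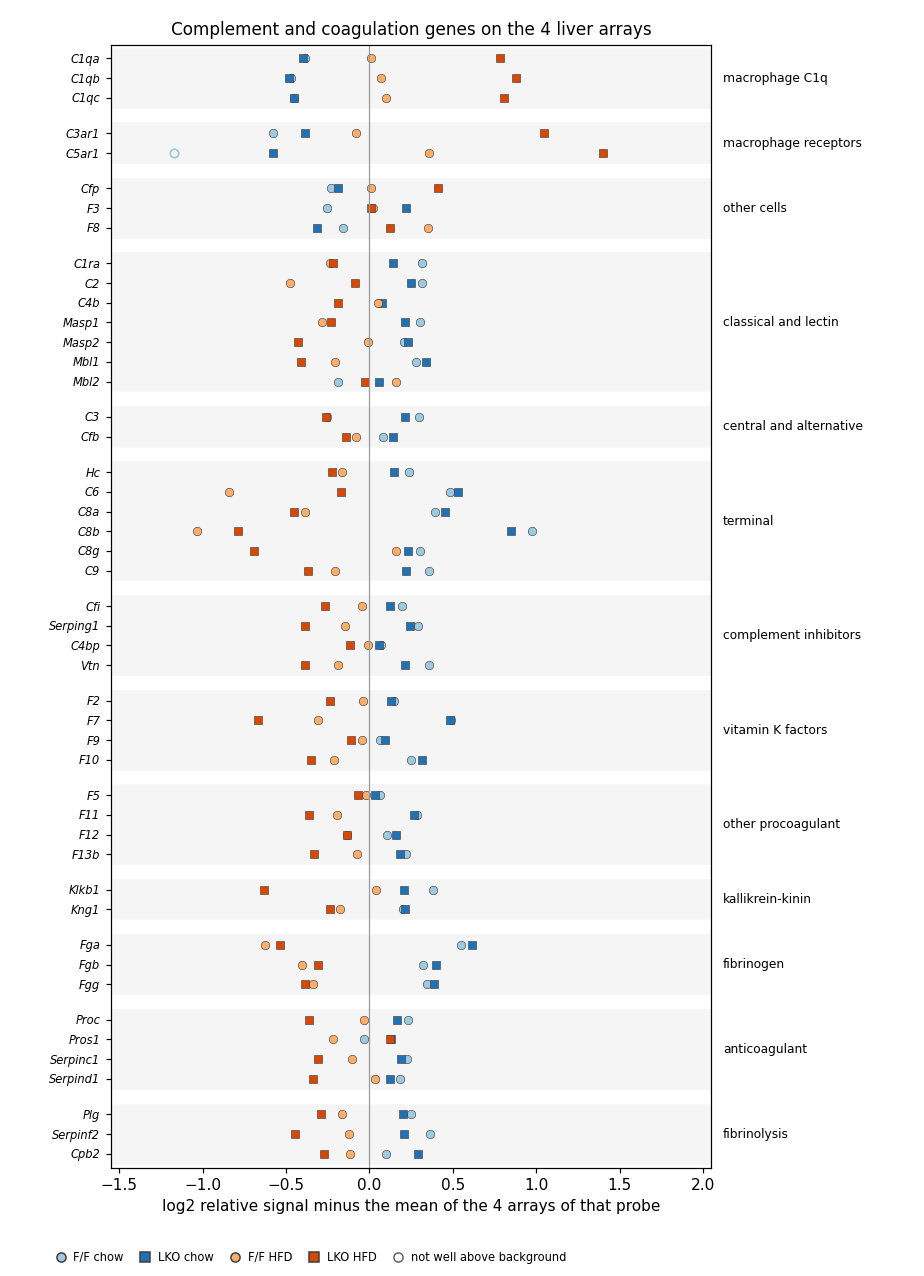
Log2 relative signal of each of the 47 members on each array, minus the mean of its 4 values (horizontal axis); rows are genes in groups by role, colours and shapes are arrays, and open symbols were not well above background. Both HFD arrays lie left of both chow arrays for 37 of the 39 hepatocyte-made factors and right of them for the 5 C1q and receptor genes.

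Among the 39 hepatocyte-made factors, both HFD arrays lay below both chow arrays for 37, while 38.8% of the 13981 genes well above background everywhere did so. The exceptions were Mbl2 and Pros1. This order was counted with the 75th percentile scaling only. By that scaling, 61.6% (F/F) and 78.8% (LKO) of the other genes with a mean relative signal of at least 10 were lower on HFD. After quantile normalization, 27 (F/F) and 26 (LKO) of the 35 factors of that brightness were lower. The LKO HFD array was the lowest for 30 factors, F/F HFD for 8 and F/F chow for 1, and LKO HFD was also the lowest for 5560 of the 13981 genes. All 5 macrophage-made members had both HFD arrays above both chow arrays, against 28.1% of all genes. The median difference of the 39 between HFD and chow was -0.40 in F/F, where 38 were lower, and -0.51 in LKO, where all 39 were lower. Over all genes the medians were -0.02 (15358 genes) and -0.07 (15242 genes). The macrophage-made members had medians of 0.54 and 1.36, and in both genotypes their ranges did not overlap with those of the hepatocyte-made factors, although in F/F Mbl2 (0.35) and C1qa (0.39) lay close. The gap in F/F was lost with normexp, which put C3ar1 at 0.06 and C5ar1 at 0.19. From 2-fold, 1 of the 5 was higher on HFD in F/F and all 5 in LKO, beside 5.21% and 8.12% of all genes.

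Few members reached 2-fold between diets. By that threshold, 1 of the 47 members was higher on HFD in F/F and 3 were lower, beside 5.21% and 2.94% of all genes. In LKO 5 were higher and 3 lower, beside 8.12% and 4.07%. At 1.5-fold the counts were 1 higher and 9 lower in F/F (13.2% and 9.6% of all genes) and 6 higher and 17 lower in LKO (15.4% and 11.7%). The members higher from 2-fold were C5ar1 in F/F and all 5 macrophage-made genes in LKO. Those lower were C8b, C6 and Fga in F/F and C8b, Fga and F7 in LKO.

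The 3 fibrinogen chains, which assemble into the clot protein, differed between diets in step with one another. Fga, the alpha chain, read 73.7 for F/F and 77.2 for LKO on chow, then 32.7 for F/F and 34.8 for LKO on HFD. Fgb, the beta chain, read 672, 708, 405 and 433. Fgg, the gamma chain, read 753, 776, 469 and 454. For each chain the arrays separated by diet and hardly by genotype. Differences between diets were -1.17 and -1.15 for Fga (F/F, then LKO), -0.73 and -0.71 for Fgb, and -0.68 and -0.78 for Fgg, while LKO and F/F differed by at most 0.10 on either diet. After quantile normalization, Fgb differed between diets by -0.44 and -0.14 and Fgg by -0.40 and -0.22, and on HFD the LKO array stood 0.30 (Fgb) and 0.18 (Fgg) above F/F, so the small genotype difference depends on the scaling. A second, dimmer Fga probe with the same accession gave other sizes, with 31.9, 42.2, 5.40 and 12.3. By that probe the diet differences were -2.56 and -1.78, and on HFD the LKO array stood 1.18 above F/F. Whether LKO and F/F differ in Fga on HFD thus depends on the probe. Fga and Fgb carry the motif matches printed above and Fgg has none.

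Terminal complement held some of the larger differences between diets. C8b, a chain of the pore-forming C8, read 47.4 for F/F and 43.5 for LKO on chow, then 11.8 for F/F and 14.0 for LKO on HFD, 4.01-fold lower on HFD in F/F and 3.11-fold lower in LKO (log2 -1.64), and its second probe gave log2 differences of -1.81 and -1.64. C6, which joins the complex before C8, read 7.27, 7.51, 2.91 and 4.64. C8g, the lipocalin chain of C8, read 272, 259, 247 and 136. These 3 genes of the same pathway ordered the arrays differently, with C6 lowest on F/F HFD and C8g lowest on LKO HFD, while C8b was lowest on F/F HFD by its brighter probe and on LKO HFD by its second (8.04 for F/F and 7.46 for LKO). In LKO on HFD, C6 differed from F/F by 0.67 and C8g by -0.86, and on chow by 0.05 and -0.07. C8a (-0.78 in F/F and -0.91 in LKO), C9 (-0.56 and -0.59) and Hc, which encodes C5 (-0.40 and -0.37), were lower on HFD in both genotypes.

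C3, the component on which all complement routes meet, read 960.1 for F/F and 908 for LKO on chow, then 657 for F/F and 654 for LKO on HFD, and its second probe ordered the diets alike. Diet separated its arrays (-0.55 in F/F and -0.47 in LKO) and genotype did not (-0.01 on HFD and -0.08 on chow). After quantile normalization C3 differed between diets by -0.20 in F/F and by 0.11 in LKO, and between genotypes by 0.20 on HFD, so its separation by diet depends on the scaling. The alternative factor Cfb differed by -0.16 and -0.28. Of the 7 classical and lectin members, 6 were lower on HFD in F/F and all 7 in LKO, with the protease C2 at -0.79 and -0.33, Mbl1 at -0.49 and -0.75, and C4b at -0.01 and -0.26. In F/F the C4b value is within the technical spread, and its second probe gave 0.03. Mbl2, a mannose-binding lectin, was the 1 factor higher on HFD in F/F (0.35), and in LKO it differed by -0.08. The 4 inhibitors Cfi, Serping1, C4bp and Vtn were lower by medians of -0.34 in F/F and -0.49 in LKO. Probes of C4b, C1ra and Kng1 may also take up transcripts of the near-identical C4a, C1rb and Kng2.

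By the main scaling, all 20 coagulation, kinin and fibrinolysis factors of hepatocytes were lower on HFD in both genotypes. F5 in F/F (-0.085) and Pros1 in LKO (-0.004) were within the technical spread. The sign depends on the scaling for some factors. After quantile normalization, 27 (F/F) and 26 (LKO) of the 35 hepatocyte-made factors with a mean relative signal of at least 10, complement included, were lower. F7, the enzyme that tissue factor binds, read 7.75 for F/F and 7.72 for LKO on chow, then 4.46 for F/F and 3.48 for LKO on HFD. Its diet differences were -0.80 in F/F and -1.15 in LKO. Klkb1, plasma prekallikrein, which acts in the contact pathway and frees bradykinin, read 36.4, 32.3, 28.8 and 18.1. F7 and Klkb1 were both lowest on LKO HFD, with Klkb1 separated from the other arrays by more than they differed among themselves. The genotype difference of Klkb1 was -0.67 on HFD (second probe -0.64) and -0.17 on chow. The other vitamin K-dependent enzymes F2, F9 and F10 differed by -0.11 to -0.46 in F/F and by -0.20 to -0.66 in LKO. F5, F11, F12 and F13b ranged from -0.09 to -0.48 and from -0.10 to -0.63. Kng1, the kininogen, differed by -0.38 and -0.45. The anticoagulants Proc, Pros1, Serpinc1 (antithrombin) and Serpind1 had medians of -0.23 and -0.48, with Pros1 at -0.00 in LKO. The fibrinolysis genes Plg, Serpinf2 and Cpb2, encoding plasminogen and inhibitors of fibrin breakdown, had medians of -0.42 and -0.56.

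**Figure D3:**
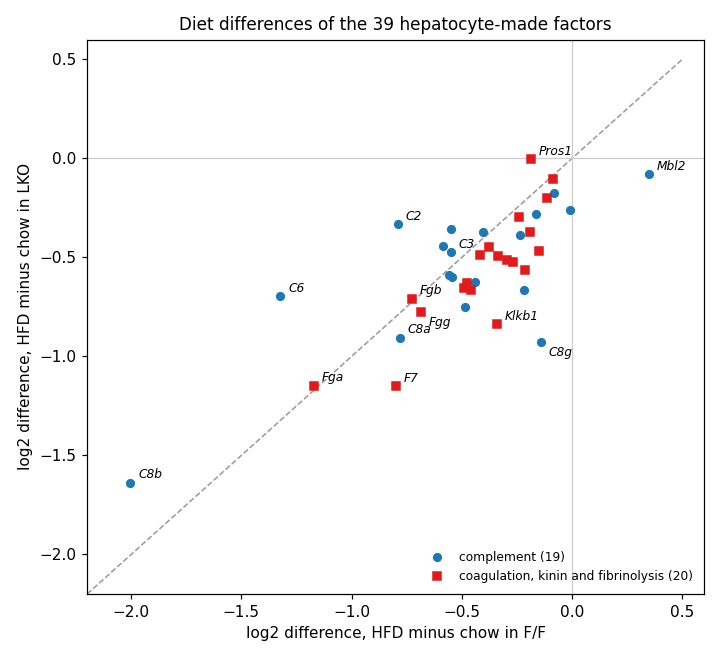
Log2 difference between HFD and chow in F/F (horizontal axis) and in LKO (vertical axis) for the 39 hepatocyte-made factors, split into complement and coagulation; the dashed line marks equal differences. All but Mbl2 lie below 0 on both axes, with C8b farthest out, and 29 of the 39 lie below the line.

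The diet differences of the 39 factors in F/F and in LKO, which share no array, had a Pearson r of 0.77 and a Spearman rho of 0.64, and over all 14836 genes with both values r was 0.69 and rho 0.68. Without C8b and C6, r over the remaining 37 was 0.68 and rho 0.60. These correlations are across genes of the same livers, which are not independent. For 29 of the 39 the diet difference was more negative in LKO, and the median of LKO minus F/F over all 39 was -0.12. The same held for 8216 of the 14836 genes, with a median of -0.04, and the medians of other bright genes given next differ by a similar amount.

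The lower values of these factors have to be read beside those of other bright genes, since 35 of the 39 had a mean relative signal of at least 10. The 2614 genes of that brightness that are no members had a median diet difference of -0.08 in F/F, where 61.6% were lower, and of -0.23 in LKO, where 78.8% were lower. The 35 factors had medians of -0.34 and -0.50, with 34 and 35 lower. After quantile normalization the other bright genes had medians of 0.05 and -0.05, and the 35 factors -0.20 and -0.21, with 27 and 26 lower. Over all 39, quantile normalization gave -0.22 in F/F and -0.29 in LKO in place of -0.40 and -0.51. The 9 hepatocyte markers were all lower on HFD too, by medians of -0.31 in F/F and -0.54 in LKO, close to those of the factors.

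Between genotypes on HFD, the hepatocyte-made factors differed little and unevenly. Their median was -0.14, with 31 lower in LKO and 8 higher, and over all 15528 genes the median was -0.03. The other bright genes also had a median of -0.14, with 73.1% lower, about the same size. Single factors differed by more. C8g and Klkb1 were lower from 1.5-fold (1.81-fold and 1.59-fold) and C6 higher (1.59-fold). Below that threshold came Masp2, a lectin pathway protease, with -0.42, whose other probes gave -0.30 and -0.12, Serpind1 with -0.37, F7 with -0.36, Proc with -0.33 and Serpinf2 with -0.32. On the higher side, C2 was at 0.39 and Pros1 at 0.35 with a second probe at 0.32. The macrophage-made members had a median of 0.81 and a range of 0.71 to 1.12, which did not overlap with the -0.86 to 0.67 of the factors, though C6 and C1qc lay next to each other. This gap was lost with normexp, which put C3ar1 (0.41) and C5ar1 (0.38) below C6 (0.66), and with the second Fga probe (1.18). In the main processing all 5 macrophage-made members were higher from 1.5-fold, as were 8.07% of all genes.

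**Figure D4:**
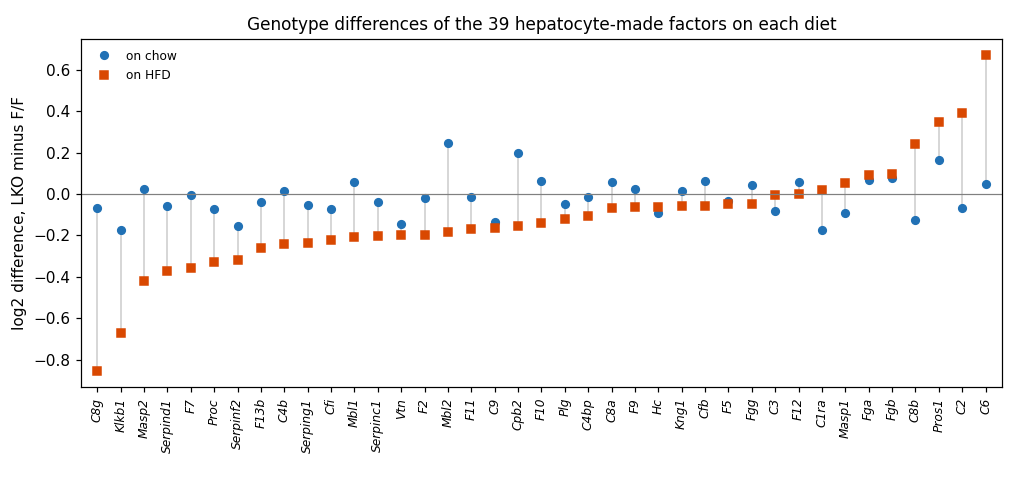
Log2 difference between LKO and F/F (vertical axis) on chow (circles) and on HFD (squares) for the 39 hepatocyte-made factors, ordered by the difference on HFD; grey lines join both values of a gene. On chow the values stay between -0.17 and 0.25, and on HFD they spread from -0.86 (C8g) to 0.67 (C6).

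By count, 2 of the 47 members, C3ar1 and C5ar1, passed 2-fold upward in LKO on HFD and 0 downward, while 2.36% of all genes were higher and 1.91% lower. At 1.5-fold, 6 were higher and 2 lower, beside 8.07% and 6.08%. On chow, 0 members differed 2-fold in either direction (1.11% and 1.03% of all 14981 genes were higher and lower). At 1.5-fold, C5ar1 was the 1 member higher, though not with normexp, and 0 were lower, beside 3.52% and 3.46%. The 39 factors had a median of -0.02 on chow, with 16 higher and 23 lower, and 32 were within 10% of equal signal. On HFD 15 were. Over all genes, 7599 of 14981 were within 10% on chow and 5463 of 15528 on HFD. Genotype differences of the factors on the 2 diets, from separate pairs of arrays, had a Pearson r of 0.25 and a Spearman rho of 0.24. Over all 14619 genes with both values, r was 0.10 and rho 0.12. Without C8b and C6, r over the remaining 37 factors was 0.30 and rho 0.27.

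**Figure D5:**
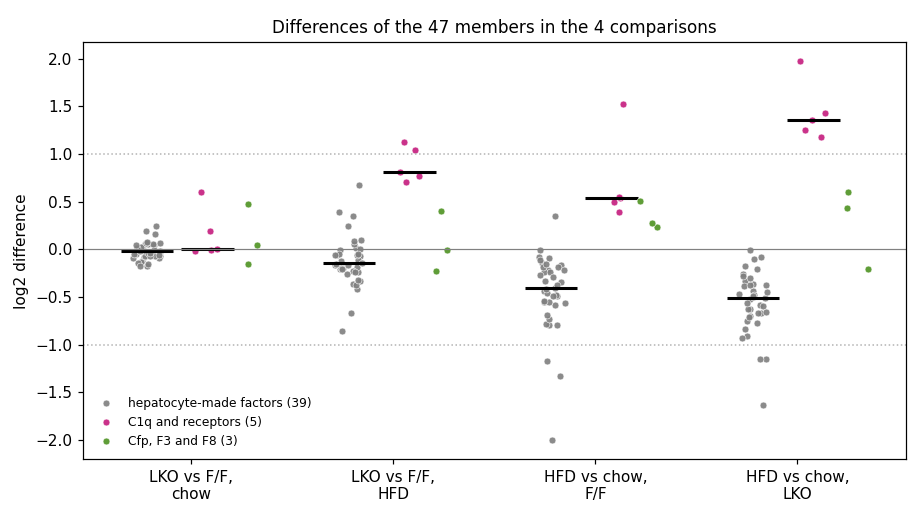
Log2 differences of the 47 members (vertical axis) in the 4 comparisons, with 1 point per gene, black bars at the medians of the hepatocyte-made factors and of the C1q and receptor genes, and dotted lines at 2-fold. The medians are -0.02 and 0.00 for genotype on chow, -0.14 and 0.81 for genotype on HFD, -0.40 and 0.54 for diet in F/F, and -0.51 and 1.36 for diet in LKO.

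A wider list of 62 complement and coagulation genes that are no members, from regulators to receptors and cofactors, was also read, 54 of them with a value on both HFD arrays. Their median genotype difference was -0.01 on HFD and 0.04 on chow. From 2-fold, 1 was higher in LKO on HFD and 1 lower, beside 2.36% and 1.91% of all genes. On chow 0 were, beside 1.11% and 1.03%. The higher one was Itgax, the alpha chain of complement receptor 4 on myeloid cells, with 0.104 for F/F and 0.134 for LKO on chow, then 0.597 for F/F and 1.66 for LKO on HFD (1.48 on HFD). The lower one was Cfd, the alternative pathway protease factor D, with 5.62, 5.96, 19.0 and 1.27 (-3.90 on HFD). Itgax thus stood highest on LKO HFD, as the C1q chains did, and Cfd was highest on F/F HFD and lowest on LKO HFD. Between diets, 9 of 55 with a value were higher and 2 lower in F/F from 2-fold, beside 5.21% and 2.94% of all genes. In LKO 10 of 54 were higher and 4 lower, beside 8.12% and 4.07%. The following were picked after their values were seen. Plau, the urokinase that activates plasminogen, was 2.01 higher on HFD in F/F and 1.72 in LKO. Lower in both were Serpine2, a thrombin inhibitor (-2.72 and -2.38), and the complement regulator Susd4 (-1.90 and -1.47).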

How the data were processed

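The authors hybridised liver RNA to Agilent one-colour arrays and deposited, per spot, the intensity that Agilent Feature Extraction 12.0.3.1 gave after background subtraction (gProcessedSignal), with its flags, and a value table. In that table each array's processed intensity is multiplied by 1 factor (2.60 for F/F and 2.63 for LKO on chow, 2.41 for F/F and 2.10 for LKO on HFD), whose making is not given in the sources used here. Here, log2 of the intensity minus the 75th percentile of the non-control spots was computed (Python 3.11.15, pandas 2.3.3, numpy 2.4.6; figures with matplotlib 3.10.9), on 59305 spots of 56605 probes per array. Spots of a probe were averaged without flagged outliers, accessions were matched to symbols through RefSeq (GRCm38.p6; 33767 probes), and the brightest probe stood for a gene. A gene below background on 1 array of a comparison entered with a bound. The members and lists were chosen with earlier results of these data known. Named by rule are the C1q, receptor, fibrinogen and other-cell genes, C3, and members from 1.5-fold between genotypes or 2-fold between diets. Other members are given as ends of a range, for their role, or for their genotype difference on HFD, with no cutoff fixed beforehand. Single arrays per condition allow no test. The steps were run on simulated data, where all 200 genes changed 4-fold between genotypes on HFD were recovered among 14948. Such a change lies above the 2-fold threshold by design, so only the running of the steps was checked. No member differed 4-fold between genotypes on HFD, so the recovery says nothing about differences of their size or about variation between mice. Alternatives were normexp (offset 50, limma 3.58.1, R 4.3.3), quantile normalization, another percentile, the deposited table, other filters, other probes, and 1.5-fold and 4-fold thresholds. A few planned items are not reported here.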

Additional observations from a re-analysis of the deposited data

Results flagged for a closer look

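For 3 members the genotype difference ran in opposite directions on the 2 diets. Each difference exceeded the technical spread of 0.089 within an array, and the contrast was not tested. Mbl2 was -0.18 in LKO against F/F on HFD and 0.25 on chow. Cpb2, the carboxypeptidase that slows fibrin breakdown, was -0.15 on HFD and 0.20 on chow. The HFD values of Mbl2 and Cpb2 lie near the median of other bright genes in that comparison (-0.14). C8b was 0.24 on HFD and -0.12 on chow, but its second probe gave -0.11 and -0.27. For F3 the diet difference was opposite, 0.28 in F/F and -0.21 in LKO, which was not tested either.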

How the results depend on the processing

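No paired analysis was possible because each condition has 1 array. None of the medians larger than the technical spread changed direction. The median of the macrophage-made members for genotype on chow, close to 0 throughout, ran from -0.03 to 0.02. Counts of members were compared only as totals of both directions. Between diets in LKO, 5 were higher and 3 lower from 2-fold, but 6 higher and 17 lower from 1.5-fold. Of the 104 alternative values of the 12 medians and counts, 86 stayed close to the reported value and 18 moved. The diet median of the hepatocyte-made factors was -0.22 in F/F and -0.29 in LKO with quantile normalization, and -0.27 and -0.37 with the deposited table, in which the median of all genes was itself 0.11 in F/F. Without filter and floor, the medians of all genes were -0.12 in F/F and -0.21 in LKO for diet and -0.12 for genotype on HFD. The macrophage-made members had a genotype median on HFD of 0.71 with normexp and diet medians in LKO of 1.19 with normexp and 1.51 with the deposited table, and in F/F of 0.67 with the deposited table. The 2 members from 2-fold between genotypes on HFD became 0 with normexp, 1 with quantile normalization, 1 among members well above background on all 4 arrays, 8 at 1.5-fold and 0 at 4-fold. At 1.5-fold the counts were 1 for genotype on chow and 10 and 23 for diet in F/F and LKO, and at 4-fold 1 and 0 for diet. For single genes, 88 of 538 alternative values moved by more than the technical spread. Signal over background limits C3ar1 and C5ar1, and the number of arrays limits every value.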

Other observations

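Other liver genes were read beside the plasma factors. Of 14 liver transcription factor genes, 11 were lower on HFD in F/F (median -0.50) and 13 in LKO (median -0.64). Among those whose motifs were searched, Hnf4a differed between diets by -0.75 in F/F and -0.66 in LKO, Stat3 by -0.76 and -0.95, Cebpa by -0.32 and -0.40, Cebpb by -0.03 and -0.54, and Cebpd by -0.22 and 0.02. From 2-fold, Foxa1 (-1.24), Foxa3 (-1.09) and Onecut1 (-1.10) were lower in F/F, and Onecut1 was in LKO (-1.17). Between genotypes the median of the list was -0.12 on HFD and -0.05 on chow. Of 18 acute phase genes outside both cascades, Socs3 and Il6ra included, 16 were lower on HFD in F/F (median -0.35) and all 18 in LKO (median -0.67). Over all genes the diet medians were -0.02 and -0.07. Of the 2614 bright genes that are no members, 61.6% and 78.8% were lower. In the acute phase list, LKO differed from F/F by a median of -0.23 on HFD and 0.11 on chow. On HFD, Saa1 (-1.19), Saa4 (-1.21) and Orm3 (-1.06) were lower from 2-fold and Socs3 higher (1.27), beside 1.91% and 2.36% of all genes. Relations between these lists and the members were not tested.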
